A study of Mus musculus with 20 samples.

Results

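The 8 genes described here encode dopamine receptors and the striatal signaling proteins that act with them: Drd1, Drd2, Drd5, Ppp1r1b, Adora2a, Pde10a, Rgs9 and Adcy5. They were picked by symbol from the 24421 genes counted in every library, for what their products are known to do. The choice was made with earlier results of these data known, so counts of called genes among them are not those of an independent set. All 8 had enough reads to be tested in both the neocortex and the hippocampus.

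Dopamine acts through receptors of 2 classes, in which D1 and D5 raise cyclic AMP and D2 lowers it. Medium spiny neurons of the striatum carry D1 (Drd1) or D2 together with an adenosine receptor (Drd2 and Adora2a). Both kinds of neuron rely on adenylyl cyclase 5 (Adcy5), phosphodiesterase 10A (Pde10a), the GTPase accelerator RGS9 (Rgs9) and DARPP-32 (Ppp1r1b), which inhibits protein phosphatase 1. The neocortex lies next to the striatum. Neurons of the neocortex and the hippocampus themselves use some of these genes, D1 in cortical and dentate neurons and D5 in the hippocampus.

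The tissues are the neocortex and hippocampus of 3-month-old cTKO mice, which carry floxed alleles of App, Aplp1 and Aplp2 and the Camk2a-Cre transgene, and those of littermates with the same floxed alleles and no Cre. GEO calls the littermates wild type, and they are called controls here. Mice were of both sexes on a mixed C57BL/6J and 129 background, untreated, and there were 5 libraries for each genotype and region, 20 in all. The Camk2a promoter drives Cre after birth in forebrain excitatory neurons, so other cells in the tissue keep the 3 genes. The regions were dissected from the same mice, and striatum was not sampled.

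The neocortical libraries held 12169474 to 24842764 counts each and the hippocampal ones 19552353 to 25331954, so that 3 reads, taken as the smallest level a library can show, were worth 0.123 to 0.247 CPM, the unit of counts scaled to library size, here after TMM scaling. As a check of the labels, App, Aplp1 and Aplp2 fell in both regions, with no overlap of the genotypes. Markers of embryonic tissue summed to 609 CPM in cTKO neocortex library 5 and 384 CPM in cTKO hippocampus library 4, against at most 3.08 CPM elsewhere. Markers of the choroid plexus ranged from 76.8 to 2724 CPM over control hippocampus and from 113 to 602 CPM over cTKO hippocampus.

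Drd1 is the gene the results turn on, so its start regions are shown. Drd1 lies on the minus strand of chromosome 13, from 54051183 to 54055658 in the RefSeq annotation of GRCm38, and no other annotated gene overlaps it. RefSeq lists 2 starts, and the counts, which are summed over the gene, do not separate them. GENCODE vM21 puts the outermost start farther upstream than RefSeq does. The first sequence is the 203 bases before the GENCODE start (chr13:54055706-54055908), without the bases between it and the outer RefSeq start. The second is the 250 bases before the inner RefSeq start (chr13:54054781-54055030), inside an intron of the longer transcript. Both are RefSeq sequence read on the gene's strand, and capitals mark GC boxes.
Drd1 outer start: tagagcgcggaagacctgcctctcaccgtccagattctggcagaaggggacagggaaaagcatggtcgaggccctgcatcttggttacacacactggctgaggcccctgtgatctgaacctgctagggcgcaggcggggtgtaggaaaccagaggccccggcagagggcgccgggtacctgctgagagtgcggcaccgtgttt
Drd1 inner start: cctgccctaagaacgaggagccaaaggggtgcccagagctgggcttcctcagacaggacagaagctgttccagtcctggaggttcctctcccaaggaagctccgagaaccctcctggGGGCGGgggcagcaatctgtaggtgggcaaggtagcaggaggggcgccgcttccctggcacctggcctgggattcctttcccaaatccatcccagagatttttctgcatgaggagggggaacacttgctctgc
The second holds 1 GC box (GGGCGG, on either strand) and the first holds none. GC boxes were found in the 250 bases before the start in 6 of the 8 windows RefSeq gives for Drd1, Drd2, Drd5, Pde10a, Rgs9 and Adcy5, and in 32.7% of all 32851 such windows. The cyclic AMP response element (TGACGTCA) and its half-site (TGACG), searched on both strands, were found in none of the 8 windows, against 1.55% and 17.8% of all windows. These matches describe letters in the windows and nothing about binding.

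In the hippocampus, Drd1 rose 3.78-fold in cTKO mice (95% confidence interval 3.02 to 4.72), and the other 7 genes did not pass the test. With 1 of the 8 genes called at an FDR under 0.05, the share over all 13702 genes tested in this region was 0.489%. At an unadjusted p under 0.05, 1 of 8 passed, against 12.0% of all genes, and the genotypes did not overlap in 1 of 8, against 3.15% of all genes. The median log2 fold change was 0.03 over the 8 genes and 0.005 over all genes tested.

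Among the receptors, Drd1 was at 4.37, 5.11, 4.82, 4.90 and 4.66 CPM in control hippocampus libraries 1 to 5. In the cTKO hippocampus, Drd1 was at 15.4, 19.9, 22.8, 19.4 and 12.8 CPM in libraries 1 to 5. Controls lay close together, every cTKO library was above all of them, and the lowest cTKO library still held more than the highest control. The control mean was 4.77 ± 0.277 CPM and the cTKO mean 18.1 ± 3.96 CPM (SD, n = 5 each), and no library held fewer than 87 reads of the gene. On the log2 scale the rise was 1.92 with a standard error of 0.149 (FDR 3.31e-05, edgeR), which ranked 5 by p among all genes tested. The exact two-sided permutation p was 0.00794, which is the least that this number of libraries permits. With any 1 library left out, the log2 fold change stayed between 1.82 and 2.02, and without cTKO library 4, the library with embryonic markers, it was 1.88. In bulk tissue, a change in the number of cells of a type cannot be told apart from a change in RNA per cell.

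Drd2, the receptor of the other medium spiny neurons, was at 2.46, 2.66, 2.04, 1.90 and 2.83 CPM in control hippocampus and at 4.10, 3.37, 2.31, 2.01 and 2.46 CPM in cTKO hippocampus. The first 2 cTKO libraries were above all controls and the other 3 lay among them. The fold was 1.20 with an interval from 0.861 to 1.67 (FDR 0.71), so a change as large as that of Drd1 lies outside it. Drd5, the other receptor of the D1 class, was at 17.2, 17.5, 17.9, 23.1 and 26.8 CPM in controls and at 16.7, 17.0, 30.9, 17.8 and 15.8 CPM in cTKO hippocampus. The highest cTKO library stood well above the other 4, which lay at the low end of the controls or below it. Its fold was 0.959 with an interval from 0.720 to 1.28 (FDR 0.950). Adora2a, the adenosine receptor, was close to the lowest level tested, at 1.05 to 2.02 CPM in controls and 0.964 to 1.89 CPM in cTKO mice, with a fold of 1.03 (0.700 to 1.51).

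The 4 signaling proteins behind the receptors showed no change that passed the test in the hippocampus. Ppp1r1b ranged from 56.5 to 81.8 CPM in controls and from 48.0 to 98.0 CPM in cTKO mice, a fold of 1.02 (0.793 to 1.32). Pde10a, which breaks down cyclic AMP and cyclic GMP, ranged from 84.2 to 108 CPM in controls and from 75.4 to 133 CPM in cTKO mice, a fold of 1.02 (0.834 to 1.25). Rgs9 ranged from 15.7 to 19.9 CPM and from 15.6 to 20.9 CPM, a fold of 1.02 (0.877 to 1.19). Adcy5 ranged from 108 to 123 CPM and from 97.9 to 123 CPM, a fold of 0.933 (0.837 to 1.04). The groups overlapped for all 4, and no interval reached beyond a fold of 1.32.

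**Figure D1:**
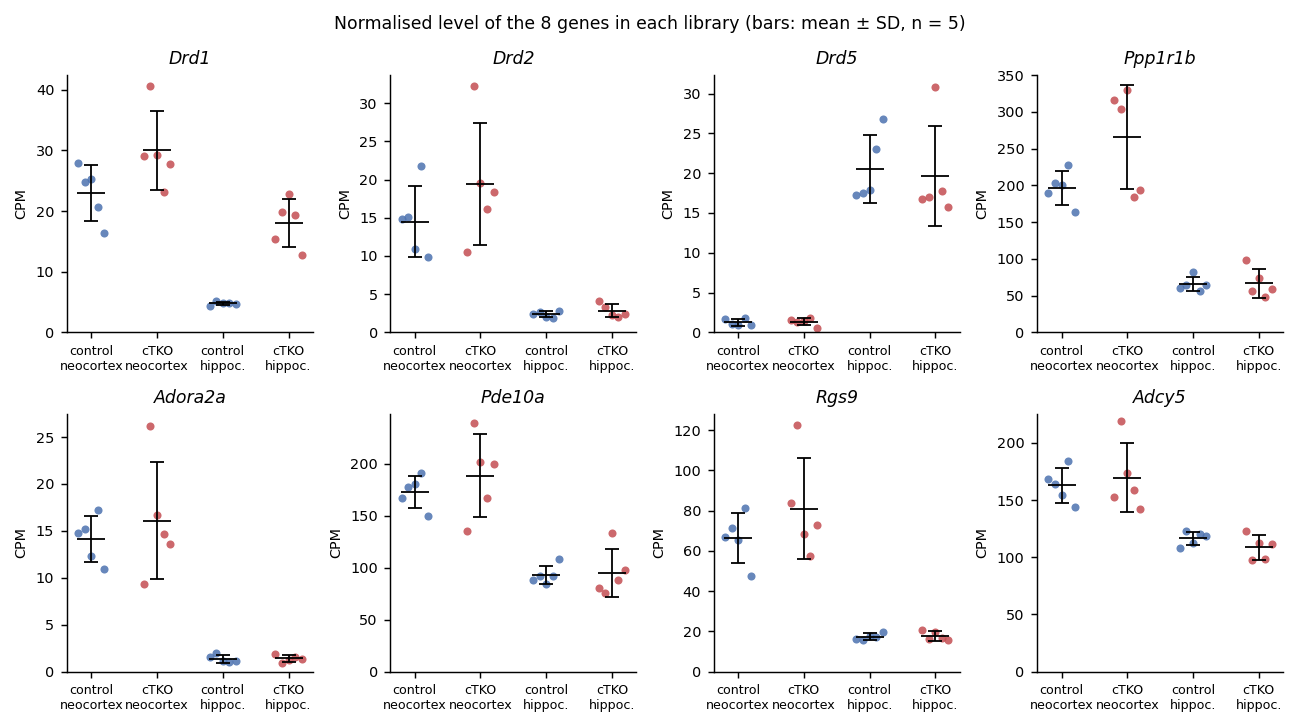
Levels of the 8 genes in CPM on a linear axis from 0, one point per library, with the mean and SD of 5 libraries in black, for control and cTKO neocortex and hippocampus. In the hippocampus, Drd1 was at 4.37 to 5.11 CPM in controls and 12.8 to 22.8 CPM in cTKO mice, and the groups of the other 7 genes overlap in both regions.

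Drd1 was next set beside markers of the striatum. Of the 12 markers listed, 6 passed the filter in the hippocampus, and 5 of these 6 had a lower mean fit in cTKO mice, with a median log2 fold change of -0.21. None was called. At an unadjusted p under 0.05, 3 of the 6 passed, all 3 lower, against 12.0% of all genes tested in this region. Rarb, Syndig1l and Lrrc10b did not pass, with log2 fold changes of -0.12, -0.005 and 0.03. The smallest p was that of Scn4b. Scn4b, a sodium channel subunit, was at 14.8, 13.5, 14.9, 16.7 and 16.3 CPM in control hippocampus and at 10.4, 12.1, 12.6, 13.7 and 13.3 CPM in cTKO hippocampus. All cTKO libraries but the fourth were below every control, the opposite order to Drd1, with a log2 fold change of -0.30 (FDR 0.235, edgeR). The control mean was 15.2 ± 1.28 CPM and the cTKO mean 12.4 ± 1.29 CPM (SD, n = 5 each).

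The other 6 striatal markers were too low to be tested in the hippocampus. Six3, Gpr6, Isl1, Ido1, Sh3rf2 and Ptpn7 were all below 1 CPM in every hippocampal library, apart from Six3 at 1.91 CPM in control library 3 and Isl1 at 1.1 CPM in cTKO library 4, the library with embryonic markers. Ptpn7 had no read in 3 of 5 control and 2 of 5 cTKO libraries. Of the 6 that were tested, Rasd2 and Lrrc10b held 71.2 and 58.7 CPM in control hippocampus, and therefore most of the summed level of 139 to 181 CPM in controls and 131 to 168 CPM in cTKO mice. The mean log2 CPM of the 6 markers, called the striatal score, was 3.82 to 3.96 in controls and 3.48 to 3.80 in cTKO mice. Every cTKO library lay below every control in it (exact permutation test, two-sided p = 0.00794), while Drd1 was higher in every one. Since the genotypes separate on both, no correlation of Drd1 with the score was computed in the hippocampus.

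The reads of both receptors were also compared within each library. The ratio of Drd1 to Drd2 was 1.65 to 2.58 in control hippocampus and 3.76 to 9.86 in cTKO hippocampus, with no overlap. In the neocortex it was 0.946 to 2.33 in controls and 1.26 to 2.77 in cTKO mice. These ratios restate the levels of both receptors and are not a separate test. With the striatal score as a covariate, the log2 fold change of Drd1 in the hippocampus was 1.78 (standard error 0.257, FDR 0.036), although the score and the genotype can hardly be separated in that fit. Striatal tissue was not sequenced, so the ratio in striatum itself is not known here. Which cells held Drd2 in the hippocampus was not tested.

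**Figure D2:**
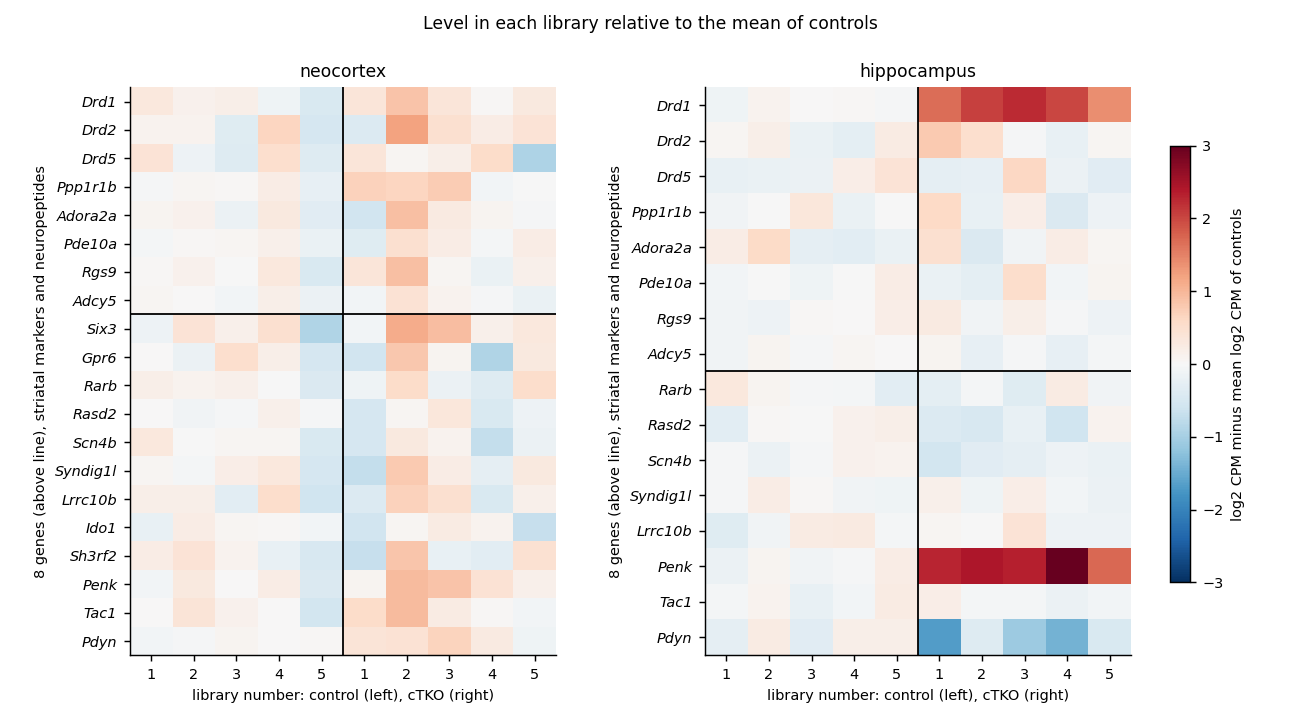
Level of the 8 genes (above the line) and of striatal markers tested in a region with 3 neuropeptides (below the line), as log2 CPM minus the mean log2 CPM of the controls, for control libraries 1 to 5 and cTKO libraries 1 to 5 of each region, with the color scale ending at 3. Hippocampal Drd1 is red in all 5 cTKO libraries while Scn4b is blue in all 5, and cTKO neocortex library 2 is red for most genes.

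Markers of the hippocampal cells themselves were compared too. Of 8 markers of dentate granule cells, 0 were called by edgeR and 4 had an unadjusted p under 0.05, 1 of them higher and 3 lower, with Calb1, which encodes calbindin, averaging 150 ± 18.0 CPM in control and 103 ± 16.6 CPM in cTKO hippocampus (SD, n = 5 each, FDR 0.0568). Of all genes tested in this region, 12.0% had an unadjusted p under 0.05. The summed level of the dentate markers was 499.8 to 696 CPM in controls and 544 to 749 CPM in cTKO mice. The part of these cells in the rise of Drd1 was not tested. Of 6 neocortical markers, 0 were called and 0 reached an unadjusted p under 0.05 in this region, and their summed level was 165 to 199.7 CPM in controls and 146 to 188 CPM in cTKO mice.

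In the neocortex, none of the 8 genes was called at an FDR under 0.05, where the share over all 13843 genes tested was 0.188%. All 8 had a fold above 1, with a median log2 fold change of 0.24 against 0.009 over all genes. At an unadjusted p under 0.05, 2 of 8 passed in edgeR's quasi-likelihood test, Ppp1r1b and Drd1, against 10.4% of all genes, and DESeq2 and the likelihood ratio and exact tests of edgeR also called 0 of 8. The genotypes overlapped for every gene, where 2.37% of all genes did not overlap.

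Drd1 was at 28.0, 24.8, 25.4, 20.6 and 16.3 CPM in control neocortex and at 29.1, 40.7, 29.3, 23.2 and 27.8 CPM in cTKO neocortex. Of the cTKO libraries, 3 were above all controls, 1 of them by far, and 2 lay among the controls. The fold was 1.31 with an interval from 1.04 to 1.65 (FDR 0.403, edgeR, and exact permutation p = 0.0873), and without cTKO library 2 the log2 fold change went from 0.39 to 0.25. Ppp1r1b was at 190, 203, 199.8, 228 and 164 CPM in controls and at 316, 304, 329.9, 184 and 194 CPM in cTKO neocortex. The cTKO libraries fell apart, 3 above all controls and 2 among them. Its fold was 1.35 with an interval from 1.08 to 1.71 (FDR 0.326, edgeR).

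Drd2 was at 14.9, 15.1, 10.9, 21.8 and 9.87 CPM in control neocortex and at 10.5, 32.2, 19.6, 16.2 and 18.4 CPM in cTKO neocortex. Only cTKO library 2 was above all controls. Adora2a was at 14.8, 15.2, 12.3, 17.2 and 11 CPM in controls and at 9.35, 26.2, 16.7, 14.6 and 13.6 CPM in cTKO neocortex. It had the same highest library, and its lowest was cTKO library 1. The folds were 1.34 (0.905 to 1.98) for Drd2 and 1.14 (0.828 to 1.58) for Adora2a.

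Rgs9 ranged from 47.4 to 81.1 CPM in control and from 57.4 to 123 CPM in cTKO neocortex, a fold of 1.23 (0.938 to 1.60). Pde10a ranged from 149.7 to 191 CPM and from 135 to 239.5 CPM, a fold of 1.1 (0.910 to 1.32), and Adcy5 from 144 to 184 CPM and from 142 to 219 CPM, a fold of 1.04 (0.895 to 1.22). Drd5 was low, at 0.904 to 1.76 CPM in controls and 0.594 to 1.80 CPM in cTKO mice, with 8 to 40 reads per library and a fold of 1.06 (0.682 to 1.64). For none of the 4 did an interval leave out a fold of 1.

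**Figure D3:**
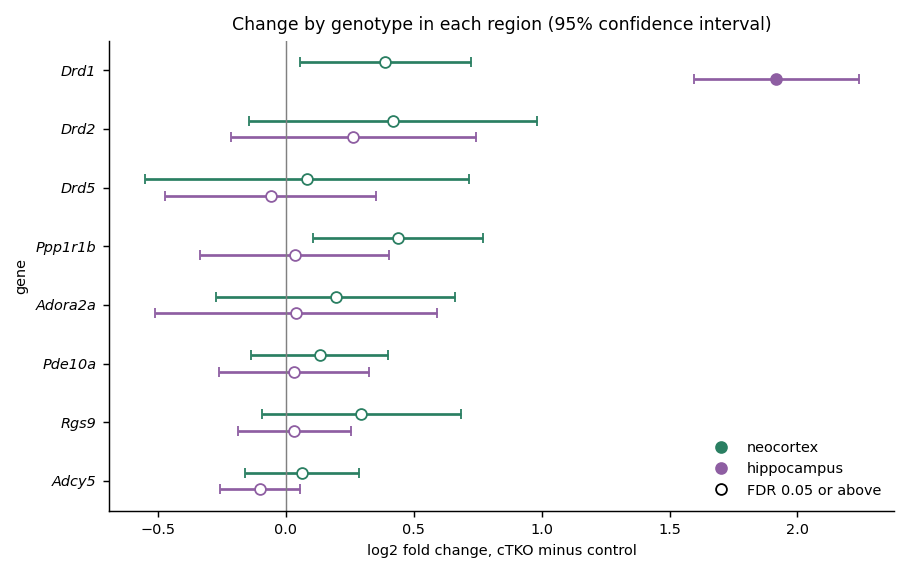
Log2 fold change of cTKO over control for the 8 genes in the neocortex and the hippocampus, with the 95% confidence interval of the quasi-likelihood fit; filled points have an FDR under 0.05. Hippocampal Drd1, at 1.92, is the 1 filled point, and the 8 neocortical points all lie above 0, between 0.06 and 0.44.

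Library 2 of the cTKO neocortex was the highest of 10 for 6 of the 8 genes, Drd1, Drd2, Adora2a, Pde10a, Rgs9 and Adcy5. It was also the highest for 9 of the 12 striatal markers, which summed to 538 CPM there, against 275 to 471 CPM in the other neocortical libraries. Without it, the log2 fold changes of Drd2 and Rgs9 fell to 0.15 and 0.09, and those of Adora2a and Adcy5 turned to -0.06 and -0.05. In the neocortex, 10 of the 12 striatal markers were tested, 0 were called by edgeR and 0 had an unadjusted p under 0.05, with a median log2 fold change of 0.06. Of all genes tested in the neocortex, 10.4% had such a p. Isl1 and Ptpn7 were the 2 markers not tested. The striatal score over the 10 was 3.97 ± 0.240 (SD, n = 5) in controls and 3.97 ± 0.442 (SD, n = 5) in cTKO mice, with a wider range in cTKO mice, from 3.46 to 4.54.

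Levels of several of the genes moved with the striatal score over the 10 neocortical libraries. A correlation was computed for all 8, with permutation p from 100000 draws adjusted over those 8 relations. For Pde10a, Pearson's r was 0.93 (permutation p = 2e-05, adjusted 0.00016) and Spearman's rho 0.95 (permutation p = 0.00011, adjusted 0.00088), and r was 0.84 without the 2 libraries farthest from the median score. Adora2a had an r of 0.85 (permutation p = 0.00199, adjusted 0.00796), a rho of 0.89 (permutation p = 0.00118, adjusted 0.00315) and an r of 0.71 without those 2. Drd2 had an r of 0.79 (permutation p = 0.00467, adjusted 0.0125), a rho of 0.90 (permutation p = 0.00076, adjusted 0.00304) and an r of 0.63 without those 2. In the 8 libraries that remained, r stayed positive for these 3 genes, as it did for all the others but Drd5. The 2 left out both had low scores, and cTKO library 2, with the highest score of 4.54, was kept. How far r rests on that library was not tested.

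For Drd1 and the striatal score, r was 0.59 (permutation p = 0.067, adjusted 0.0893) and rho 0.42 (permutation p = 0.23, adjusted 0.263), and r was 0.71 without the same 2 libraries, control 5 and cTKO 1. For Adcy5, r was 0.72 (permutation p = 0.0169, adjusted 0.0339), rho 0.70 (permutation p = 0.031, adjusted 0.062) and r without those 2 libraries 0.68. For Rgs9, r was 0.64 (permutation p = 0.0425, adjusted 0.0681), rho 0.49 (permutation p = 0.154, adjusted 0.224) and r without those 2 libraries 0.88. Ppp1r1b and Drd5 had an r of 0.31 (permutation p = 0.371, adjusted 0.424) and -0.13 (permutation p = 0.717, adjusted 0.717), a rho of 0.48 (permutation p = 0.168, adjusted 0.224) and -0.03 (permutation p = 0.947, adjusted 0.947), and an r without those 2 libraries of 0.70 and -0.22. With the score as a covariate, the log2 fold change of Drd1 in the neocortex was 0.39 (standard error 0.12, FDR 0.274, edgeR), the same size as without it.

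**Figure D4:**
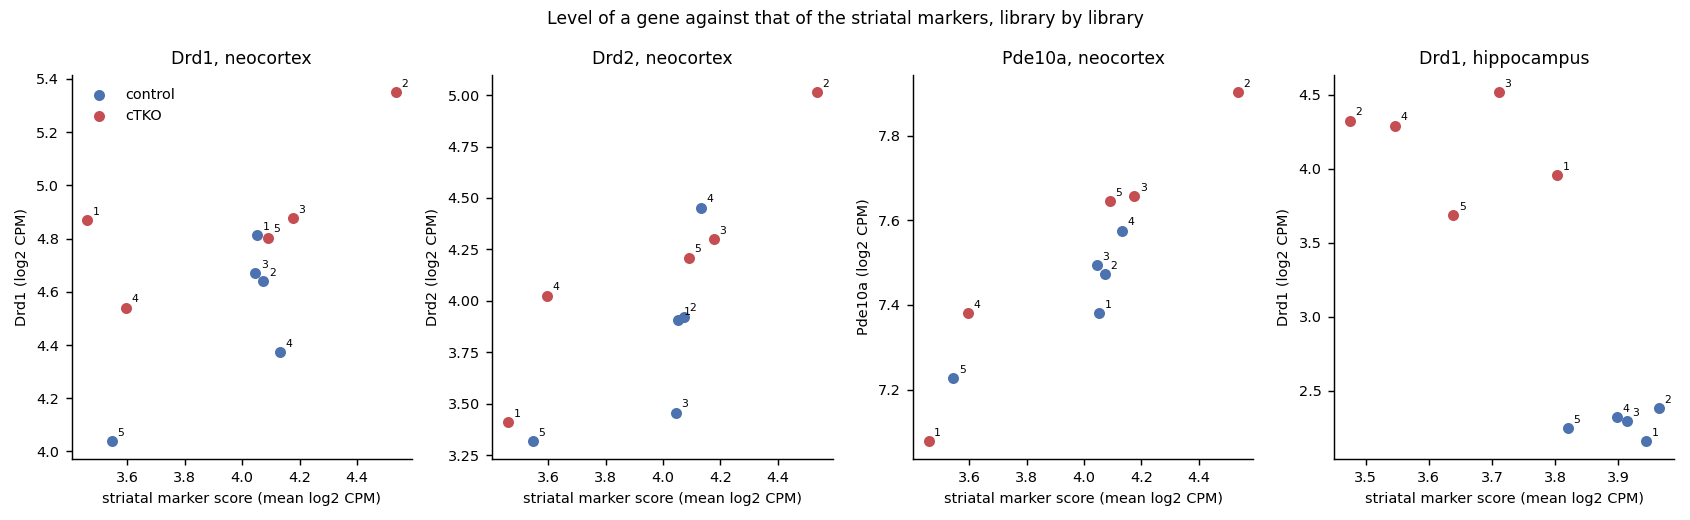
Log2 CPM of Drd1, Drd2 and Pde10a in the neocortex and of Drd1 in the hippocampus against the striatal score, one point per library with its number, blue for controls and red for cTKO mice. Pde10a rises with the score in the neocortex (r = 0.93), while in the hippocampus the cTKO libraries lie above the controls in Drd1 at lower scores, 3.48 to 3.80 against 3.82 to 3.96.

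Markers of neocortical layer 6 were also listed, since D1 and DARPP-32 are found in deep layers. All 8 had a fold above 1 in the cTKO neocortex, and 0 were called by edgeR. An unadjusted p under 0.05 was reached by 3 of the 8, against 10.4% of all genes tested there. Their summed level was 187 to 223 CPM in controls and 224 to 245 CPM in cTKO mice. The groups did not overlap, but the highest control and the lowest cTKO library lay close together. Syt6, a synaptotagmin, had the smallest p, with a log2 fold change of 0.43 (FDR 0.143). The part of layer 6 cells in the levels of Drd1 and Ppp1r1b was not tested.

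The regions differed in all 8 genes in controls (8 of 8 called, against 51.1% of all 14192 genes tested over the 20 libraries), in tests that treat regions of the same mice as independent. Drd5 was 15.8-fold higher in the hippocampus than in the neocortex. The other 7 were lower there, Adora2a 10.2-fold, Drd2 6.10-fold, Drd1 4.82-fold, Rgs9 3.82-fold, Ppp1r1b 3.01-fold, Pde10a 1.86-fold and Adcy5 1.40-fold, with FDR values of 0.000247 or less. In cTKO mice, Drd1 was 1.66-fold lower in the hippocampus than in the neocortex, and Drd2 6.77-fold lower. The interaction of region and genotype was called for Drd1 and none of the other 7, with a log2 difference of 1.54 (standard error 0.230, FDR 0.00444), where 0.0564% of all genes were called. For the other 7 the interaction lay between -0.40 for Ppp1r1b and -0.09 for Pde10a, each with an interval that held 0.

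Per length, as CPM divided by the kilobases of annotated exon (RPKM, computed here), the order of levels in control neocortex ran from Ppp1r1b at 67.2 ± 7.95 (SD, n = 5) through Adcy5 at 22.7 ± 2.14, Pde10a at 13.5 ± 1.21, Rgs9 at 10.4 ± 1.92, Drd1 at 6.35 ± 1.26, Drd2 at 5.69 ± 1.84 and Adora2a at 4.60 ± 0.802 down to Drd5 at 0.399 ± 0.131. Drd1, Drd2 and Adora2a lay within their spread of each other. In control hippocampus, the order was Ppp1r1b at 22.4 ± 3.33 RPKM, Adcy5 at 16.2 ± 0.829, Pde10a at 7.23 ± 0.704, Drd5 at 6.51 ± 1.36, Rgs9 at 2.72 ± 0.262, Drd1 at 1.32 ± 0.0762, Drd2 at 0.934 ± 0.155 and Adora2a at 0.448 ± 0.135. There Drd5 had the highest level per length of the tested dopamine receptors, although it overlaps Gm26560 on the opposite strand and reads of such a pair cannot be told apart if strand was not used in counting. Its level did not differ from that of Pde10a beyond the spread. In cTKO hippocampus, Drd1 at 4.98 ± 1.09 RPKM was above Rgs9 at 2.78 ± 0.359 and within the spread of Drd5 at 6.23 ± 2.01. In reads, the ratio of Drd1 to Drd5 went from 0.173 to 0.292 in control hippocampus to 0.738 to 1.17 in cTKO hippocampus. The exon length of Pde10a, 12.8 kb, includes long annotated ends that may hold few reads, and its RPKM is then too low.

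Of the remaining dopamine receptors, Drd3 and Drd4 did not pass the filter in either region. Drd4, which is singled out after its values were seen, had 2, 1, 1, 7 and 2 reads in control neocortex libraries 1 to 5 and 80, 31, 46, 31 and 6 reads in cTKO neocortex. Of the 5 cTKO libraries, 4 were above every control, and library 5 was not. In a fit without a filter, Drd4 had an FDR of 0.030 in the neocortex, where 0.218% of 19279 genes were called. In the hippocampus it had 3, 1, 1, 2 and 1 reads in controls and 29, 9, 11, 7 and 2 reads in cTKO mice, with an FDR of 0.143 in that fit, where 0.374% of 19268 genes were called. The control libraries lay mostly at or under 3 reads, so no fold is given. Drd3 had at most 6 reads in a control and 15 reads in a cTKO library, the latter in cTKO neocortex library 2.

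The striatal neuropeptides did not move together in the hippocampus. Penk, the enkephalin precursor of D2 neurons in the striatum, was at 29.9 to 39.2 CPM in control and 112 to 282 CPM in cTKO hippocampus, up by 2.43 on the log2 scale, with a standard error of 0.197 (FDR 4.59e-05). Tac1, the substance P precursor of D1 neurons, was at 6.5 to 9.05 CPM and 6.66 to 8.66 CPM, a log2 fold change of -0.04 (FDR 0.937). Pdyn, the dynorphin precursor of D1 neurons, was at 10.1 to 15.1 CPM and 3.90 to 9.73 CPM, lower in every cTKO library, with a log2 fold change of -0.95 (FDR 0.122). In the neocortex, none of the 3 was called by edgeR, and all 3 had a fold above 1, between 1.28 and 1.44. An unadjusted p under 0.05 was reached by 2 of the 3, against 10.4% of all genes tested there.

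Among the signaling genes that act beside the 8, 1 of 15 RGS proteins and anchors tested rose in the hippocampus. This was Rgs4, a brake on Gi and Gq signaling, at 165 to 203 CPM in controls and 242 to 427 CPM in cTKO mice, up by 0.75 on the log2 scale with a standard error of 0.129 (FDR 0.0236). Of 11 phosphatase 1 subunits and related regulators, 1 rose there, Ptpn5, the striatum-enriched phosphatase STEP, at 136 to 152 CPM and 164 to 227 CPM, up by 0.46 with a standard error of 0.0902 (FDR 0.0456). Of all genes tested in the hippocampus, 0.489% were called. In the neocortex, 0 genes of either list were called by edgeR. An unadjusted p under 0.05 was reached there by 2 of 15 and 0 of 11, against 10.4% of all genes tested. Rgs4 there had a fold close to 1, with control and cTKO means of 496 ± 46.9 and 505 ± 53.1 CPM (SD, n = 5 each), and the RGS protein with the smallest p was Rgs6 (log2 fold change -0.40, FDR 0.107).

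The rest of the cyclic AMP pathway had no gene called by edgeR in either region. At an unadjusted p under 0.05, 10.4% of all genes tested passed in the neocortex and 12.0% in the hippocampus. Of 8 other adenylyl cyclases, 3 had an unadjusted p under 0.05 in the neocortex and 1 in the hippocampus, with Adcy8 first in the neocortex (log2 fold change -0.33, FDR 0.170) and Adcy1 first in the hippocampus (log2 fold change -0.51, FDR 0.136). Of 15 other phosphodiesterases, 3 and 2 had an unadjusted p under 0.05, with Pde1a first in the neocortex (0.35, FDR 0.326) and Pde7b first in the hippocampus (-0.51, FDR 0.163). Of 9 G protein subunits, 0 and 1 did, and Gng7, a gamma subunit abundant in the striatum, stood at -0.37 on the log2 scale in the hippocampus (FDR 0.115), while Gnai2 had the smallest p in the neocortex (0.08, FDR 0.758). Protein kinase A subunits had 0 and 2 of 6, with Prkar1b first in both regions (0.11, FDR 0.672, and 0.27, FDR 0.191).

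Genes for making, moving and breaking down dopamine are used mainly by midbrain neurons, whose cell bodies are not in these tissues. Of the 5 tested in each region, 0 were called by edgeR, with 1 at an unadjusted p under 0.05 in the neocortex and 3 in the hippocampus. Th, tyrosine hydroxylase, had the smallest p in the neocortex (log2 fold change 0.63, FDR 0.445). Of the 2 other adenosine receptors tested, 0 were called and 0 had an unadjusted p under 0.05, with Adora2b first in the neocortex (-0.37, FDR 0.619) and Adora1 first in the hippocampus (-0.06, FDR 0.754).

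**Figure D5:**
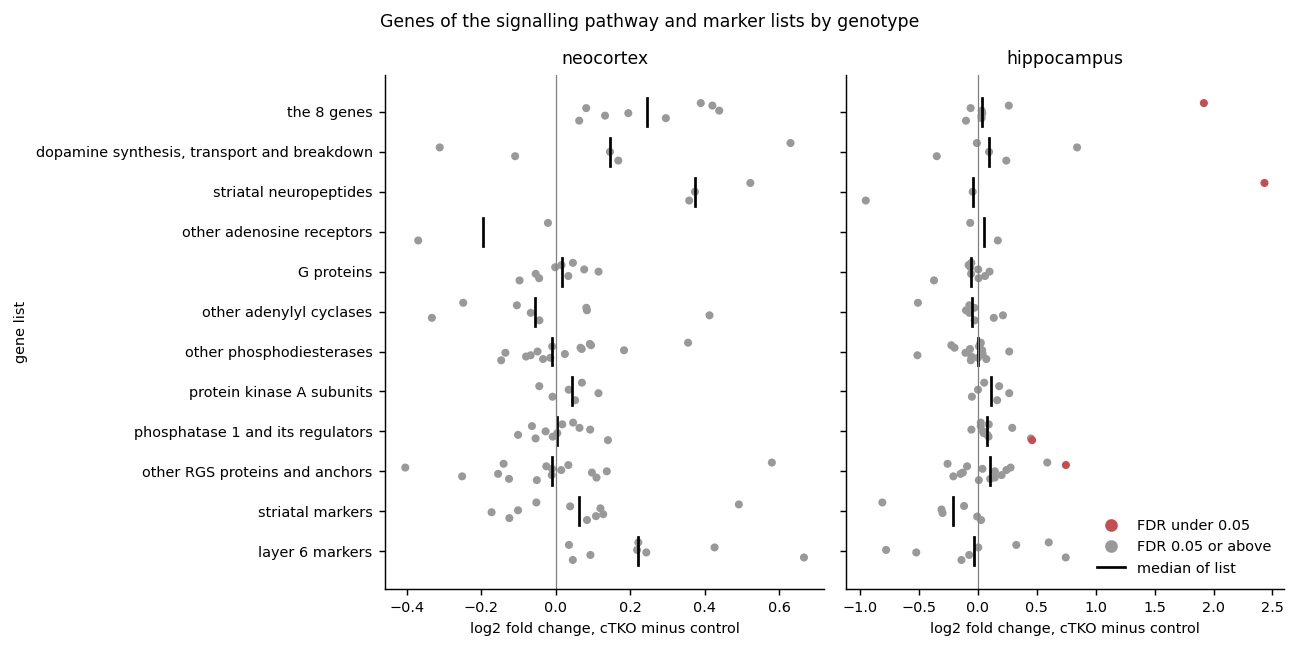
Log2 fold change of cTKO over control for every tested gene of the 8 genes and of 11 lists around them, by region, red where the FDR is under 0.05 and gray otherwise, with a black bar at the median of a list and separate axis ranges for the regions. The 4 red points in the hippocampus are Drd1, Penk, Ptpn5 and Rgs4, and the medians of the other signaling lists lie near 0.

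The genes most like each of the 8 were sought by the correlation of log2 CPM, as deviations from the genotype mean, over the 10 libraries of a region, among all genes tested. In the neocortex, Drd2 and Adora2a were in each other's first 3 (r = 0.96), and Gnal, the G protein alpha subunit of striatal neurons, was among the first 3 for Drd2 (0.92), Adora2a (0.96) and Pde10a (0.97). Syndig1l, a striatal marker, was the first for Pde10a (0.98). Drd1 in the neocortex was most like Slc40a1 (0.94), Cmc1 (0.93) and Spock3 (0.92), and Ppp1r1b most like Prkab1 (0.96), Chst15 (0.96) and 1810041L15Rik (0.95). In the hippocampus, none of the 8 had another of them or a striatal marker in its first 3, and Drd1 was most like Ppp1r13l (0.95), Atad3a (0.94) and Tle1 (0.94). With 10 libraries and 13702 or more genes to choose from, high values arise for every gene, and the libraries share dissection and depth.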

How the data were processed

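The authors prepared poly-A libraries with a TruSeq kit, mapped single-end reads to mm10 with STAR (2.5.4a, per the labels) and counted them on genes with HTSeq, whose strand setting is not given in the sources used here. The deposited values are raw counts per gene symbol, 1 file per library. Groups and library numbers are from the labels. The 8 genes and all gene lists were chosen with earlier results of these data known.

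Counts were analyzed with edgeR 4.0.16 in R 4.3.3. A gene was tested if at least 5 libraries of the fit had more than 1 CPM, TMM factors were used, and genotypes were compared in each region with the quasi-likelihood test (estimateDisp, glmQLFit, glmQLFTest). P values were adjusted by Benjamini-Hochberg over all genes tested, and an FDR under 0.05 was called. Standard errors and 95% intervals were derived from the F statistic. Region and interaction tests used 1 fit of all 20 libraries. Printed CPM use 1 scaling of the 20 libraries, so folds differ slightly from ratios of means. Log2 CPM used a prior count of 2. Exact permutation tests were two-sided over 252 splits. Floors of 3 counts cover counting error only, since reads carry no molecular identifiers. Separate mice are taken from the methods, and no pair of libraries of a group agreed within sampling noise (chi-square per degree of freedom at least 3.82).

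Correlations with the striatal score were computed only where the genotypes overlap in both measures, which left the neocortex. Genes named outside the 8 are App, Aplp1 and Aplp2, striatal markers, the genes of each other list called in a region or else the 1 with the smallest p, and the 3 genes most like each of the 8. The exceptions are Drd3, Drd4, the neuropeptides, which were given in full, and Rgs4 in the neocortex. Some genes of the marker lists are left out of the text and are not reported here. Positions, starts and sequences are from RefSeq on GRCm38, matched by symbol, and start windows for Ppp1r1b and Adora2a were not used here. Exon lengths are from GENCODE vM21. Drd2, Drd5, Ppp1r1b, Pde10a and Adcy5 overlap other annotated genes, all but Drd2 on the opposite strand in GENCODE, and their levels could include or lack reads of the overlaps. Of those genes, 1700003D09Rik, at Ppp1r1b, held at most 4 reads in a library.

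The alternatives were edgeR's likelihood ratio and exact tests, DESeq2 1.42.0, DESeq2 size factors, total counts only, no filter, filterByExpr, 1 fit of 20 libraries, the library number as a block, Xist or the striatal score as a covariate, each library left out, and a summed striatal level. Scripts were tested on simulated data. Figures were drawn with matplotlib 3.10.9.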

Additional observations from a re-analysis of the deposited data

Results flagged for a closer look

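Drd5 in cTKO hippocampus library 3 stood apart from the other 4 libraries of its group, at 30.9 CPM against 15.8 to 17.8 CPM. On the log2 CPM scale the gap was 0.826 of the group's range, where 0.71 is the critical value of Dixon's test for 5 values. Of 32 groups examined, 1 was set apart in this way, and chance sets apart about 1 in 20. Without that library, the log2 fold change of Drd5 in the hippocampus was -0.28. The change of Drd1 by genotype differed between the regions, with an interaction of 1.54 on the log2 scale.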

How the results depend on the processing

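The number of the 8 genes called was the same in every alternative run, 0 in the neocortex, 1 in the hippocampus, 1 for the interaction and 8 for the regions. For Drd1 in the hippocampus, log2 fold changes were 1.78 to 1.92 with FDR up to 0.036 over 11 alternatives, and 1.82 to 2.02 with FDR up to 0.000336 with a library left out. With the library number as a replicate block, Drd1 was at 1.90 (FDR 0.000351) and no call among the 8 changed, Ppp1r1b in the hippocampus moved from 0.03 to -0.00224, and 12 genes in all were called in the neocortex. Same-numbered libraries of the 2 genotypes correlated in their deviations at 0.00395 to 0.211 in the neocortex and -0.138 to 0.13 in the hippocampus. These correlations were over 0.1 in 3 and 1 of 5 pairs. A control library correlated best with the cTKO library of its own number in 3 of 5 in the neocortex and 1 of 5 in the hippocampus. The numbers were not taken as pairs in the main fits, and what same-numbered neocortical libraries share was not tested. Same-numbered libraries of the 2 regions correlated at 0.115 to 0.348 in controls and -0.0913 to 0.375 in cTKO mice, and each library correlated best with its own number in 4 of 5 and 3 of 5. With the striatal score as a covariate, Adcy5 in the hippocampus turned from -0.10 to 0.132, and Adora2a moved from 0.04 to 0.692, Ppp1r1b from 0.03 to 0.643, Drd2 from 0.26 to 0.471, Rgs9 from 0.03 to 0.195 and Pde10a from 0.03 to 0.173, with none of these called (FDR 0.273 to 0.854).

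With a library left out, log2 fold changes of genes that were not called crossed 0, in the neocortex for Drd5 (-0.05 to 0.232), Adora2a (-0.0592 to 0.342) and Adcy5 (-0.0499 to 0.112), and in the hippocampus for Rgs9 (-0.036 to 0.0836), Adora2a (-0.0948 to 0.223), Pde10a (-0.123 to 0.104), Ppp1r1b (-0.15 to 0.128) and Drd5 (-0.284 to 0.0535). The interaction did so for Adora2a (-0.313 to 0.0972), Drd2 (-0.341 to 0.116) and Pde10a (-0.247 to 0.0086). The causes were not tested.

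The number of genes called in all depended on the test. In the neocortex it was 26, against 167 with the likelihood ratio test, 163 with the exact test, 221 with DESeq2, 42 with no filter, and 7 to 133 with a library left out. In the hippocampus it was 67, against 259, 258 and 331 with those tests, 189 in 1 fit of 20 libraries, 21 with the striatal score as a covariate, and 15 to 149 with a library left out. For the interaction it was 8, against 26 with the likelihood ratio test or DESeq2, 18 with a block, and 5 to 20 with a library left out. Depth limits Drd5 in the neocortex, Adora2a in the hippocampus and Drd4 in both regions.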

Other observations

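Ppp1r1b in the cTKO neocortex fell into separate values, 316, 304 and 329.9 CPM in libraries 1 to 3 and 184 and 194 CPM in libraries 4 and 5. The striatal score of the same libraries was 3.46, 4.54, 4.18, 3.60 and 4.09, so libraries with a high Ppp1r1b held both the lowest and the highest score, and their summed layer 6 markers were 245, 237, 224, 226 and 233 CPM.

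Wfs1, listed as a marker of hippocampal CA fields, was called in the neocortex, at 360.6 ± 97.6 CPM (SD, n = 5) in cTKO mice against 189 ± 18.4 CPM (SD, n = 5) in controls (log2 fold change 0.94, FDR 0.0307, edgeR). No other gene of the marker lists for neocortex, layer 6, dentate gyrus, hilus, CA fields, thalamus and choroid plexus was called in either region.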
